A study of Mus musculus with 2 samples.

Results

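The cells described here are stem and progenitor cells of mouse bone marrow caught in or close to mitosis, at a low level of granulocyte and red cell genes. They were chosen by RNA content alone. A cell was taken when the mitotic genes Ccnb1, Cenpf, Aspm, Ube2c and Hmmr together gave at least 10 of every 10000 of its unique molecular identifiers (UMIs, each counting 1 captured RNA molecule). It also had to hold fewer than 10 per 10000 of the myeloid genes Mpo, Elane and Ctsg together, and fewer than 5 per 10000 of the erythroid genes Car1, Klf1, Ermap and Rhag together. The rule found 1264 of 10769 kept cells in the library labelled RUNX1 KO and 1404 of 9472 kept cells in the library labelled RUNX1 WT, which is 2668 of 20241 in all. They are called mitotic cells below, and the remaining 9505 KO-labelled and 8068 WT cells are called other kept cells.

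The study used mice with floxed Runx1 alleles and Mx1-Cre, a Cre recombinase under an interferon-inducible promoter, and asked how the composition of the LSK CD150+ compartment, which is enriched for haematopoietic stem cells, compares between genotypes. RUNX1 is a transcription factor of the core binding factor family that acts in blood formation. Sorted cells were profiled with the 10x Genomics 3′ assay, with 1 library labelled KO (Runx1 floxed, Mx1-Cre) and 1 library labelled WT. Whether the WT mice carried Mx1-Cre or were given the inducing agent, how many mice were pooled and which part of Runx1 was deleted are not given in the sources used here. With 1 library per genotype there is no replicate and no test between libraries, and the intervals given in parentheses after values cover counting error alone, at 95%.

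Mitosis is driven by cyclin B bound to the kinase CDK1. Kinetochores then attach the chromosomes to the spindle, and the anaphase-promoting complex ends the phase by marking cyclin B and securin for destruction. RNAs for this machinery accumulate through G2 and M phase and are low in G1. Most long-term stem cells of the adult marrow are quiescent, and progenitors downstream of them divide more often.

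Several facts of the libraries bear on all values. The mitotic cells had a median of 13615 UMIs and 3650.5 genes in the KO-labelled library and 13447.5 UMIs and 3726 genes in the WT library. The other kept cells had medians of 8693 UMIs in the KO-labelled and 9088 UMIs in the WT library. Summed over mitotic cells, the libraries held 18052851 KO-labelled and 21173244 WT UMIs. Of the KO-labelled mitotic cells, 84.3% had Xist RNA and no Y-linked UMI and 9.97% a Y-linked UMI without Xist. In the WT library 78.0% of mitotic cells were male by this reading, and 1 of 1404 was female. Sex and genotype label therefore cannot be told apart except among male cells, for which the share of mitotic cells and the gene ratios between mitotic cells were also computed. Runx1 itself had 217 UMIs per 1000000 UMIs of the summed cells (CPM) in KO-labelled mitotic cells and 123 CPM in WT mitotic cells, a ratio of 1.76 (1.68 to 1.85), and a ratio of 1.94 in the other kept cells. The direction goes against the label, but 3′ tags outside a deleted exon would not show the deletion, so the KO library is called KO-labelled throughout. The libraries shared 39 barcodes, of which 33 passed the filters in both and 0 were mitotic in both.

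The 5 mitotic genes that define the cells act at different steps. Ccnb1 encodes cyclin B1, Cenpf a protein of the outer kinetochore, Aspm a spindle pole protein, Ube2c the ubiquitin-conjugating enzyme of the anaphase-promoting complex, and Hmmr a spindle assembly factor. Their promoters are shown because the rule did not use sequence, and because genes of G2 and M phase are known to carry the cell cycle homology region TTTGAA near the start and CCAAT boxes upstream of it. Each window, from RefSeq on GRCm38.p6, runs from 250 bases before to 50 bases after the transcription start. Capitals mark CCAAT, and TTTGAA and its variant TTCGAA, on either strand, so that TTCAAA and ATTGG are the reverse complements.

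Ccnb1 (chr13:100786437-100786736, minus strand): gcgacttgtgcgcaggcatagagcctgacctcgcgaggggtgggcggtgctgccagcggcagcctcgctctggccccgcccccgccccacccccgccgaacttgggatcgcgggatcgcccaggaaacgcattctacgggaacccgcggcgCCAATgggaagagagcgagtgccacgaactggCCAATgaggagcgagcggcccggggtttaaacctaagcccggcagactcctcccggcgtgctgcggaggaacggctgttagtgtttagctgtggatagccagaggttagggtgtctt
Cenpf (chr1:189688037-189688336, minus strand): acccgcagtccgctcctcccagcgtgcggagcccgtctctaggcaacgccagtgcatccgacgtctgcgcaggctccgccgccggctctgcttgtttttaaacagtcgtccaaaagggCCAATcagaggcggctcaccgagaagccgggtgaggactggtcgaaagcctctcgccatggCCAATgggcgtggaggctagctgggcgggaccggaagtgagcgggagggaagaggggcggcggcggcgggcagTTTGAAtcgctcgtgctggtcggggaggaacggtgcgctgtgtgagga
Aspm (chr1:139454523-139454822, plus strand): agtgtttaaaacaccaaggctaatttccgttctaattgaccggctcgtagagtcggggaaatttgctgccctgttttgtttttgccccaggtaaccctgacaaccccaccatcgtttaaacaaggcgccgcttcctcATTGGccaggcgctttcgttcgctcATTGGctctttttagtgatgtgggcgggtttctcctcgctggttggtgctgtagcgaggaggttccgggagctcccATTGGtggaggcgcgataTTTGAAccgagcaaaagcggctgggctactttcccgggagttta
Ube2c (chr2:164769679-164769978, plus strand): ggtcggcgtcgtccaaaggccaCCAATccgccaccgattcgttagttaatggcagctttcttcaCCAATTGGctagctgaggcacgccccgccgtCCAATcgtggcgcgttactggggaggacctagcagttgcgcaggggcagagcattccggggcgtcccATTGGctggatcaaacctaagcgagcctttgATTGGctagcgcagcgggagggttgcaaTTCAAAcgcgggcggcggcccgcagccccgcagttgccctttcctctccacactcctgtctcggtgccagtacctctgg
Hmmr (chr11:40733388-40733687, minus strand): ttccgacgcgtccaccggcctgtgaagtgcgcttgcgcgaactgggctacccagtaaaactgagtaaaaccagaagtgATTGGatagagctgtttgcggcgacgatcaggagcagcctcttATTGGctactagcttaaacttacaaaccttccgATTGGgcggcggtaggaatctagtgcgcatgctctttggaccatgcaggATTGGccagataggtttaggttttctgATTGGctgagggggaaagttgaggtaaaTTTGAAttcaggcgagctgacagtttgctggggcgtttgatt

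TTTGAA was present in 4 of these 5 windows, at base 3 after the start in Cenpf, base 7 in Aspm, base 9 in Hmmr, and on the opposite strand 29 bases before the start in Ube2c. Positions count from the start in RefSeq, which for Hmmr lies upstream of the gene's start in the GENCODE annotation, so that its match lies before the GENCODE start. For Ube2c and Ccnb1 the RefSeq start lies downstream of the GENCODE gene start. The TTTGAA match of Ube2c therefore lies just after the GENCODE gene start. TTTGAA was not found in the window of Ccnb1. CCAAT was present in all 5, with 2 copies in Ccnb1 and in Cenpf, 3 in Aspm, 6 in Ube2c, of which a pair overlaps as CCAATTGG, and 5 in Hmmr. Over all 27025 promoter windows of the table, 18.1% held TTTGAA and 37.9% held CCAAT. The motif TTTCCCGC or TTTCGCGC, a form of the E2F site of S phase genes, was in none of the 5 and in 1.41% of all windows. A match in a window is a description of its letters, not evidence of a bound factor.

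In the mitotic cells of both libraries, Ube2c had the most UMIs of the 5 genes, which 3′ tags count without regard to length, with 1085 CPM in the KO-labelled library and 972 CPM in the WT library. Cenpf had 642 and 584 CPM, Hmmr 342 and 316 CPM, Ccnb1 265 and 238 CPM, and Aspm 176 and 173 CPM, in each case KO-labelled before WT. The 5 genes were found together in most of the cells: 992 of 1264 KO-labelled mitotic cells (78.5%) and 1058 of 1404 WT mitotic cells (75.4%) had UMIs of all 5. By contrast 59.3% of other kept KO-labelled cells and 51.7% of other kept WT cells had none of the 5. These shares are at full depth, which was higher in the mitotic cells. The values of the 5 genes chose the cells and are given as description. The 5 genes together gave a median of 23.1 UMIs per 10000 in KO-labelled and 21.9 in WT mitotic cells, a quantity called the mitotic load below. Just inside the threshold, at a load of 10 to 12, lay 112 KO-labelled and 147 WT cells. Just outside it, at 8 to 10 with both lineage limits met, lay 129 KO-labelled and 141 WT cells.

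Mitotic cells were a smaller share of the KO-labelled library. They made up 11.7% (11.1 to 12.4) of KO-labelled kept cells and 14.8% (14.1 to 15.6) of WT kept cells, a ratio of 0.792 (0.738 to 0.850). With every cell thinned to 3000 UMIs, the shares were 13.1% and 15.98%, a ratio of 0.817. Among cells that met both lineage limits they were 14.2% of KO-labelled cells and 17.99% of WT cells, a ratio of 0.790. Among male cells they were 126 of 973 KO-labelled cells (12.9%) and 1095 of 6690 WT cells (16.4%), a ratio of 0.791 (0.666 to 0.939), and among female cells of the KO-labelled library 11.9%.

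In cells at or over a lineage limit the shares of the libraries lay closer together. Of cells at or over the myeloid limit, 123 of 671 KO-labelled cells (18.3%, 15.5 to 21.5) and 103 of 551 WT cells (18.7%, 15.5 to 22.2) passed the mitotic threshold. Of cells at or over the erythroid limit, 293 of 1218 KO-labelled cells (24.1%, 21.7 to 26.6) and 285 of 1129 WT cells (25.2%, 22.7 to 27.9) did. With 1 library per genotype, whether the classes differ in the gap between libraries was not tested.

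**Figure D1:**
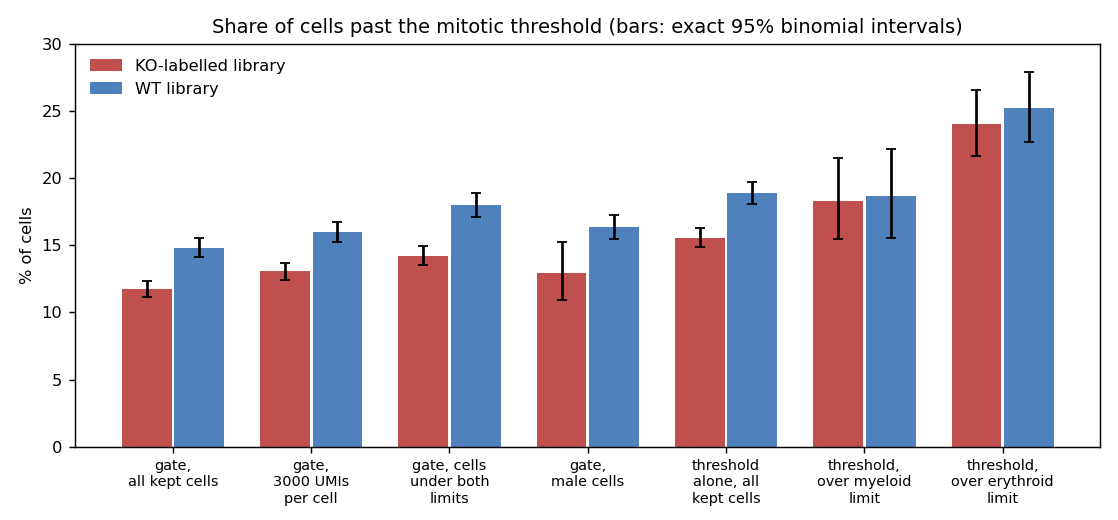
Share of cells past the mitotic threshold, in percent, for the KO-labelled library (red) and the WT library (blue), with exact binomial intervals as bars. The KO-labelled share was the lower one in all kept cells (11.7% and 14.8%), in thinned cells, in cells under both limits and in male cells. The shares lay closest for cells over the myeloid limit (18.3% and 18.7%) and over the erythroid limit (24.1% and 25.2%).

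The gap between the libraries lay at low and middle loads. Cells with a load of 10 to 35 were 1017 of 8887 KO-labelled cells under both limits (11.4%) and 1220 of 7803 WT cells (15.6%), a ratio of 0.732 (0.677 to 0.791). Cells with a load of 35 or more were 247 KO-labelled cells (2.78%, 2.45 to 3.14) and 184 WT cells (2.36%, 2.03 to 2.72), a ratio of 1.18 (0.976 to 1.42). The boundary at 35 was chosen after the distribution was seen. Within the mitotic cells, 30.5% of KO-labelled and 22.9% of WT cells had a load of 30 to 50, and 39.7% and 43.7% had a load of 10 to 20.

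**Figure D2:**
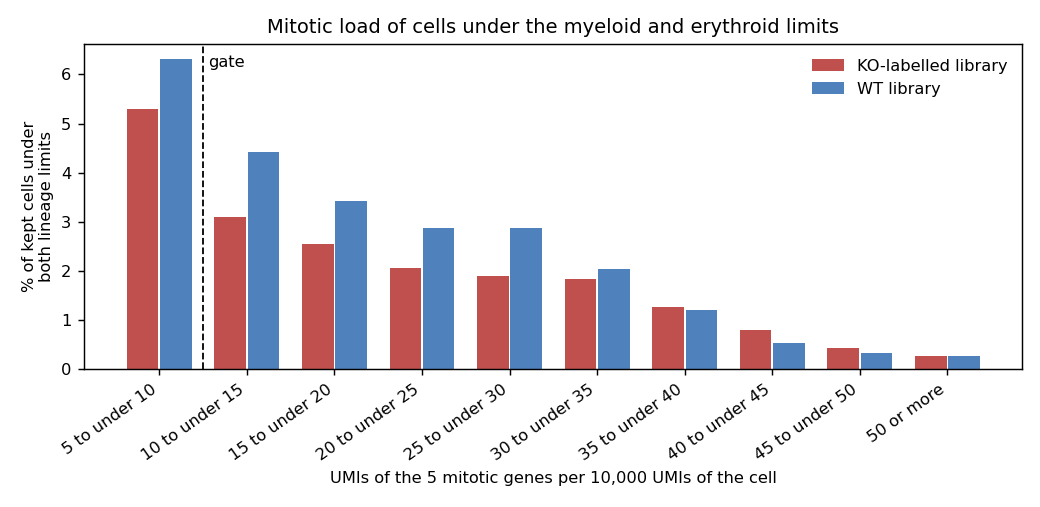
Distribution of the mitotic load, in UMIs of the 5 mitotic genes per 10000, as a percent of kept cells under both lineage limits, for the KO-labelled library (red) and the WT library (blue); ranges under 5 are not drawn and the dashed line is the threshold of 10. The WT bars are higher up to a load of 35 and the KO-labelled bars are higher from 35 to 50.

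The rest of the mitotic machinery followed the 5 genes. Against the other kept cells, 178 of 6272 genes at 20 CPM or more were at least 2-fold higher in mitotic cells of both libraries (2.84%), and 76 were at least 2-fold lower (1.21%). The other kept cells include granulocyte and red cell progenitors, so the contrast was also made with the 7623 KO-labelled and 6399 WT cells that met both limits but not the mitotic threshold. There, 179 of 6295 genes were higher (2.84%) and 43 lower (0.683%). The rule used this contrast, so its folds are descriptions.

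Spindle and cytokinesis genes stood apart the most among the lists. All 23 were at least 2-fold higher in mitotic cells of both libraries, with a median log2 ratio of 1.98 against other kept cells, where the median over all genes tested was 0.03 and 54.4% of them were higher and 34.0% lower in both. Kif23, a motor of the central spindle, had 221 CPM in KO-labelled mitotic cells against 37.0 CPM in other KO-labelled cells, and 179 CPM in WT mitotic cells against 31.5 CPM in other WT cells. Prc1, which bundles microtubules at the spindle midzone, had 436 against 74.4 CPM in the KO-labelled and 417 against 79.6 CPM in the WT library. Of the kinetochore list 20 members were measured, all were higher, and 14 were at least 2-fold higher in both libraries. Cenpa, the histone H3 variant of centromeres, had 616 against 112 CPM in the KO-labelled library and 508 against 111 CPM in the WT library.

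Kinases and phosphatases of mitotic entry were next. Of 16, 15 were higher and 14 were at least 2-fold higher in both libraries. Plk1, a kinase of entry and spindle assembly, had 160 CPM in mitotic against 26.7 CPM in other KO-labelled cells, and 158 against 29.1 CPM in WT cells. Cdc25b, a phosphatase that activates CDK1, had 86.7 against 10.3 CPM in the KO-labelled and 75.4 against 10.7 CPM in the WT library. Pkmyt1, a kinase that inhibits CDK1, was the member without a shared direction, at ratios of 1.04 in the KO-labelled and 0.84 in the WT library. Of the genes of the anaphase-promoting complex and mitotic exit 7 of 10 were at least 2-fold higher in both, with Cdc20, an activator of that complex, at a ratio of 5.97 in the KO-labelled and 5.36 in the WT library. Pttg1, which encodes securin, stood at 1.17 and 1.29 in the same order.

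Among the 12 highest genes, the largest ratios belonged to Fam83d, a spindle protein outside the lists. It had 21.7 CPM in KO-labelled mitotic cells against 1.72 CPM in other KO-labelled cells and 23.5 against 2.22 CPM in WT cells. Pimreg had ratios of 9.57 and 7.89, Prr11 of 9.11 and 7.55, and Pif1, a helicase, of 7.60 and 7.56, KO-labelled before WT. Cdkn3, a phosphatase of CDKs, had 169 against 23.5 CPM in the KO-labelled and 159 against 23.9 CPM in the WT library. Cdc25c, Troap, Nek2, Psrc1 and Kif18b, the others of the 12 highest, had ratios between 5.57 and 8.03 over the libraries. Cdkn3, Cdc25c, Nek2 and Kif18b, like Cdc25b and Kif23 above, are also members of the lists.

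**Figure D3:**
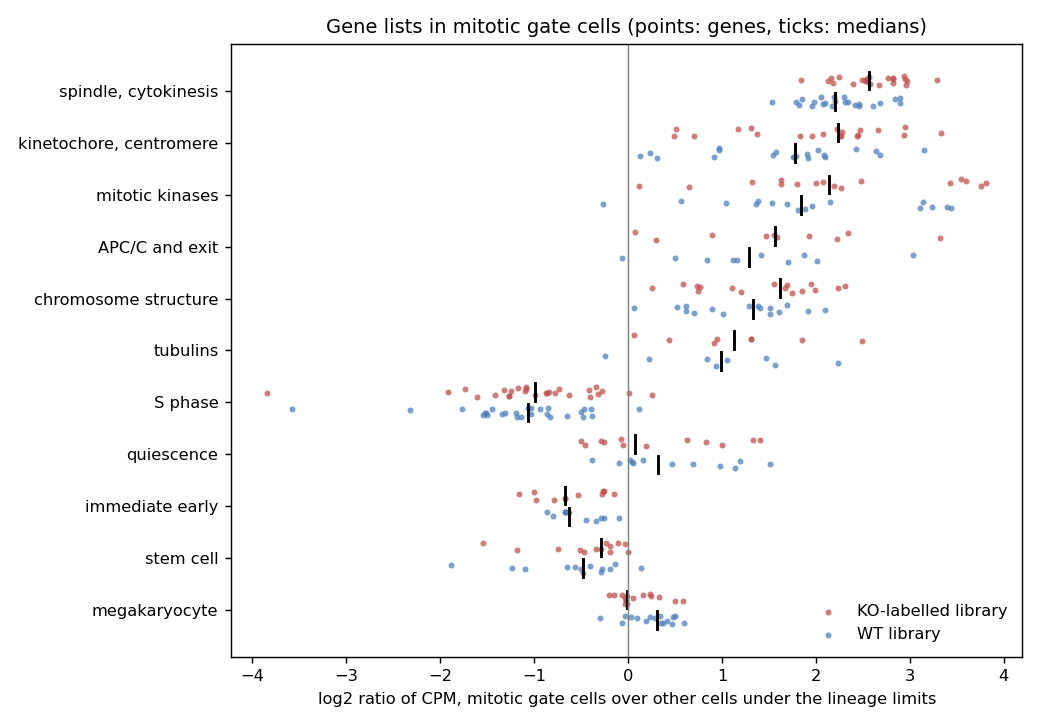
Log2 ratio of CPM in mitotic cells over other cells under both lineage limits, with 1 point per gene and black ticks for medians, KO-labelled library (red) above WT library (blue) in each list. The spindle list has medians of 2.56 and 2.20 and the S phase list -0.99 and -1.06, while the megakaryocyte list lies near 0, at -0.01 and 0.31.

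S phase genes were lower in mitotic cells. Of 27 replication genes 26 were lower than in other kept cells of both libraries and 11 at least 2-fold lower, with a median log2 ratio of -0.86. The exception was Rrm1, a subunit of ribonucleotide reductase, at a ratio of 1.06 in each library. Ung, the uracil-DNA glycosylase, had 3.77 CPM in mitotic against 49.5 CPM in other KO-labelled cells, and 5.86 against 63.2 CPM in WT cells. Cdt1, which licenses replication origins, had 10.1 against 44.9 CPM in KO-labelled and 15.1 against 57.0 CPM in WT cells. E2f1, a transcription factor of S phase genes, had 7.59 against 38.4 CPM and 11.5 against 50.1 CPM. Ccne1 and Ccne2, the cyclins E of S phase entry, had ratios between 0.08 and 0.16 over the libraries.

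Of the other genes among the 12 lowest, 7 are genes of other lineages and 2 are metallothioneins. Igkc, the kappa light chain, had 15.2 CPM in mitotic against 983 CPM in other KO-labelled cells, and 31.9 against 1802 CPM in WT cells, and Jchain, Ighg2b and Igha were low as well. At 3000 UMIs per cell an Igkc UMI was found in 3.89% of mitotic and 5.34% of other KO-labelled cells, and in 10.6% of mitotic and 11.3% of other WT cells, so the shares of cells lay far closer than the sums. Rhd and Tspo2, red cell genes, and Prtn3, a granule protease, were low too, and all 3 lie in lineages that the limits remove. Against other cells under the limits, the ratios of Prtn3 were 0.68 in the KO-labelled and 0.64 in the WT library. The metallothionein Mt1 had 24.4 CPM in mitotic against 153 CPM in other KO-labelled cells, and 31.1 against 147 CPM in WT cells. Mt2 had 1.33 against 26.9 CPM in KO-labelled and 2.41 against 23.6 CPM in WT cells. Against other cells under the limits the ratios were nearer to 1. They were 0.52 in the KO-labelled and 0.58 in the WT library for Mt1, and 0.45 and 1.01 for Mt2. Mt2 was under the floor of 20 CPM on both sides of that contrast.

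Immediate early genes were lower in mitotic cells than in other cells under the limits, for 11 of 11 members in both libraries, with a median log2 ratio of -0.63, where 35.9% of all genes tested were lower. In the same contrast stem cell genes were lower for 12 of 13 members, with a median of -0.24, whereas against other kept cells 6 were higher and 6 lower. Ly6a, which encodes Sca-1, had 31.4 CPM in mitotic against 52.1 CPM in other kept KO-labelled cells, and 14.9 against 40.2 CPM in WT cells. Against other kept cells, 7 of 13 measured members of the quiescence list were higher and 2 lower in both libraries. Over all genes tested, 54.4% were higher and 34.0% lower. Cdkn2d, an inhibitor of CDK4 and CDK6, had 207 CPM in mitotic against 75.3 CPM in other KO-labelled cells and 179 against 71.3 CPM in WT cells, and Cdkn2c and Ccng2 were higher as well. Cdkn1c, the inhibitor p57, had 3.16 against 4.85 CPM in the KO-labelled and 7.51 against 11.9 CPM in the WT library, all under the floor of 20 CPM. Ribosomal protein genes were lower for 79 of 81 members, with a median of only -0.17.

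The sequence motifs of the 5 defining genes were common among the other genes higher in mitotic cells. Of the 179 genes at least 2-fold higher than in other cells under the limits, 128 had a promoter in the table, and 76 of these (59.4%) held TTTGAA, 58 (45.3%) within 50 bases of the start. Over all tested genes the shares were 12.7% and 3.61%. CCAAT was in 84 of the 128 (65.6%), against 39.1% of all tested genes, but it was also common in S phase promoters. Of the 43 genes at least 2-fold lower, 28 had a promoter, with TTTGAA in 2 (7.14%) CCAAT in 13 (46.4%) and the E2F-type motif in 6 (21.4%), against 3.39% of all tested genes for the last. By list, TTTGAA was in 17 of 20 spindle promoters and 3 of 21 S phase promoters, CCAAT in 11 of 20 and 14 of 21, and the E2F-type motif in 0 of 20 and 8 of 21.

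Within the gate, spindle and S phase genes varied with the mitotic load, which the rule used, while the tubulin list varied less. From the lowest to the highest range of load (10 to 20, 20 to 30, 30 to 50, and 50 or more), the spindle list had 28.9, 34.9, 41.6 and 51.3 UMIs per 10000 in KO-labelled cells and 27.7, 34.6, 40.4 and 50.3 in WT cells. Over the same ranges the S phase list had 20.4, 14.1, 10.2 and 7.68 UMIs per 10000 in KO-labelled cells and 22.1, 15.2, 11.9 and 7.45 in WT cells. The tubulin list had 60.2, 56.6, 55.4 and 59.3 in KO-labelled and 55.3, 56.2, 56.4 and 60.5 in WT cells. Tuba1b, an alpha tubulin, had 704, 617, 583 and 634 CPM in KO-labelled and 764, 732, 693 and 694 CPM in WT cells. Pcna, the sliding clamp of replication, had 48.2 CPM at a load of 10 to 20 and 16.96 CPM at 30 to 50 in KO-labelled cells, and 58.9 and 23.9 CPM in WT cells. Cdc20 had 289 and 550 CPM in the same ranges of the KO-labelled library, and 242 and 498 CPM of the WT library. The top range held 24 KO-labelled and 21 WT cells. Hmgb2, a chromatin protein not used by the rule, had 3325 and 3643 CPM in KO-labelled and 2899 and 3412 CPM in WT cells at the lower and the higher of these 2 ranges.

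**Figure D4:**
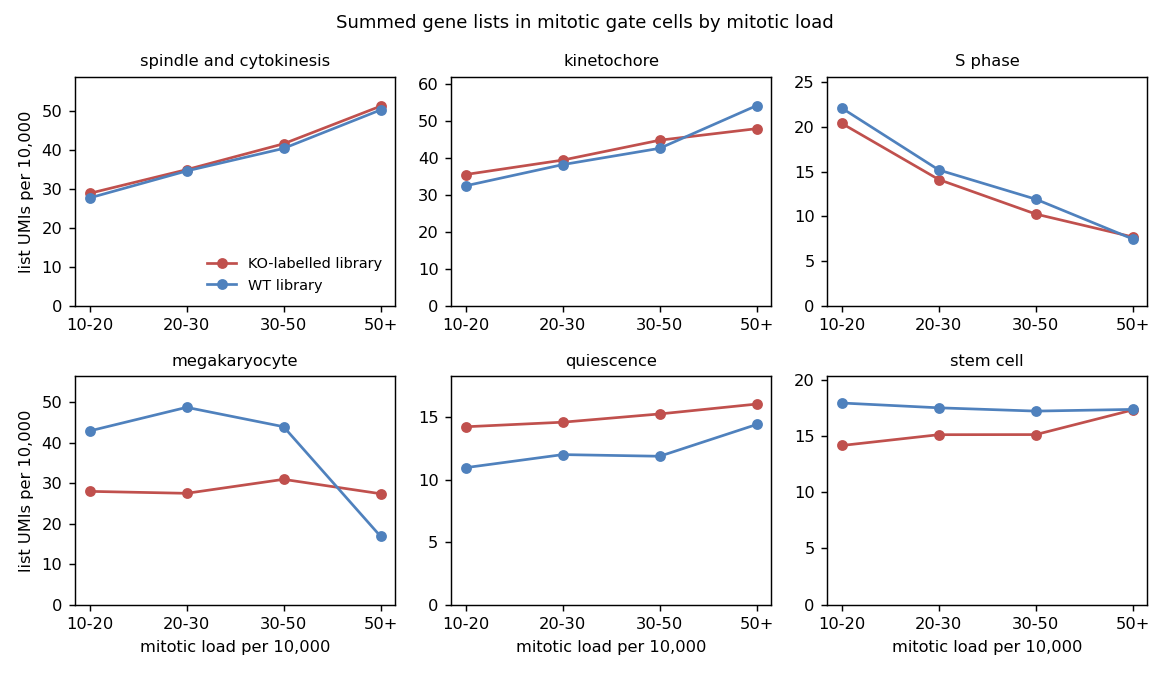
UMIs per 10000 of 6 gene lists, summed over mitotic cells in 4 ranges of mitotic load, for the KO-labelled library (red) and the WT library (blue). Spindle and kinetochore genes are higher and S phase genes lower at high load in both libraries. The megakaryocyte list is lower in the KO-labelled library in all ranges but the last, which holds 24 KO-labelled and 21 WT cells. Summed over all mitotic cells, nearly all of that gap came from Pf4, at a ratio of 0.35, while 6 of 16 measured members were higher.

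Between the libraries, mitotic cells had near-equal levels of the mitotic machinery. Cells of both libraries entered by the same mitotic threshold, and spindle and kinetochore genes rose with the mitotic load. The choice of cells therefore favours near-equal levels, and the values are a description. Inside the gate 57 of 6039 genes were at least 2-fold higher in the KO-labelled library (0.944%) and 49 at least 2-fold lower (0.811%). Of 93 measured members of the 6 mitotic lists (kinases, anaphase-promoting complex, kinetochore, spindle, chromosome structure and tubulins), 0 were at least 2-fold apart and 1 at least 1.5-fold, where 5.32% of all genes were at least 1.5-fold apart. That gene was Ect2, an exchange factor of cytokinesis, with 58.4 CPM in KO-labelled and 38.1 CPM in WT mitotic cells, a ratio of 1.53 (1.40 to 1.68). Plk1 had 160 and 158 CPM, Mki67 1063 and 1017 CPM, and Top2a 1017 and 1071 CPM. The largest gaps the other way were Ckap2l at 0.73 (0.69 to 0.76) and Pttg1 at 0.77 (0.69 to 0.86).

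By direction, 59 of the 93 were higher in KO-labelled mitotic cells, whereas 38.7% of all genes were higher and 61.3% lower. In the other kept cells 7 of 75 measured members were higher, where 35.6% of all genes were. Scaling by trimmed means of the ratios in place of totals moved every log2 ratio inside the gate by 0.08 and the split over all genes to 52.9% higher. The kinetochore list had a median log2 ratio of 0.10 inside the gate and -0.14 in other kept cells, and the spindle list 0.06 and -0.21. With equal weights for load ranges, a comparison added after the loads were seen, these medians inside the gate were 0.06 and 0.02.

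Within mitosis 20 of 25 S phase genes had the lower value in KO-labelled cells, where 61.3% of all genes were lower. Their median log2 ratio was -0.21 where all genes had -0.07. Over the alternatives the S phase median lay between -0.32, between male cells, and -0.06, without lineage limits. The S phase list fell with the mitotic load, and 30.5% of KO-labelled against 22.9% of WT mitotic cells had a load of 30 to 50. In other kept cells 27 of 27 S phase genes were lower, where 64.4% of all genes were, with a median of -0.29. Mcm2, of the replicative helicase, had 27.6 CPM in KO-labelled and 43.0 CPM in WT mitotic cells, and Hells, a chromatin remodeller, 17.8 and 28.8 CPM. These are ratios of 0.64 and 0.62, which were 0.87 and 0.73 without lineage limits. Cyclins D, which act in G1, were lower too. Ccnd1 had 11.5 CPM in KO-labelled and 30.6 CPM in WT mitotic cells, a ratio of 0.38 (0.32 to 0.44), and Ccnd2 had 139 and 260 CPM, a ratio of 0.53 (0.51 to 0.56). In other kept cells the ratios were 0.56 and 0.71. Ccnd3 stood at 0.82 and Ccnb2, a B-type cyclin of mitosis, at 1.30 (1.26 to 1.34).

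Most measured quiescence and immediate early genes were higher in KO-labelled mitotic cells, and most of these by less than 1.5-fold. All 12 measured members of the quiescence list were higher, where 38.7% of all genes were, with a median log2 ratio of 0.34. Of the 12, 3 were at least 1.5-fold and 1 at least 2-fold higher. In other kept cells 12 of 12 were higher, where 35.6% of all genes were, with a median of 0.50. Gadd45g, a stress-induced growth arrest gene, had 38.5 CPM in KO-labelled and 14.4 CPM in WT mitotic cells. Cdkn2c, the inhibitor p18 of CDK4 and CDK6, had 109 and 67.0 CPM, a ratio of 1.63 (1.53 to 1.75), and Ccng2 had 56.5 and 33.5 CPM. Of the immediate early genes 9 of 10 were higher, against the same 38.7% of all genes, with a median of 0.36, 3 of them at least 1.5-fold and 1 at least 2-fold. Fosb had 66.1 CPM in KO-labelled and 29.6 CPM in WT mitotic cells, and Fos 59.9 and 31.5 CPM.

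Single lineage genes of the mitotic cells were further apart. Pf4, a chemokine of megakaryocytes and of platelet-primed stem cells, had 835 CPM in KO-labelled and 2412 CPM in WT mitotic cells, a ratio of 0.35 (0.34 to 0.35). At 3000 UMIs a Pf4 UMI was present in 31.9% of KO-labelled and 53.9% of WT mitotic cells. The share in cells over the myeloid limit was 3.58% in the KO-labelled and 11.7% in the WT library, at median depths of 15737 and 15416 UMIs before thinning. Whether those cells made the Pf4 RNA themselves was not tested. Vwf, the von Willebrand factor, had 20.9 and 63.2 CPM, and Selp 18.2 and 35.1 CPM. Other megakaryocyte genes went the opposite way: Clec1b, the receptor CLEC-2, had 42.1 CPM in KO-labelled and 11.9 CPM in WT mitotic cells, Treml1 156 and 71.5 CPM, and Gp5 164 and 94.4 CPM. Over the list 6 of 16 were higher and 10 lower, with a median of -0.18, a split near that of all genes (38.7% higher and 61.3% lower). In other kept cells 8 of 15 were higher, where 35.6% of all genes were, with a median of 0.07.

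Among stem cell genes 5 of 12 were higher and 7 lower, with a median log2 ratio of -0.07, which is close to all genes at 38.7% higher and a median of -0.07. Ly6a had 31.4 CPM in KO-labelled and 14.9 CPM in WT mitotic cells, and Slamf1, which encodes CD150, had 30.5 and 17.7 CPM. Mecom, a transcription factor of stem cells, had 24.1 and 56.5 CPM, a ratio of 0.43 (0.38 to 0.48). Genes of multipotent and lymphoid-primed progenitors were higher in 4 of 6 measured members, each at least 1.5-fold, where 38.7% of all genes were higher. Cd48 had 183 CPM in KO-labelled and 64.8 CPM in WT mitotic cells, and Cd34 172 and 98.5 CPM. Mef2c was lower, at 289 and 470 CPM. Of the core binding factor list, Runx2 had a ratio of 1.46 (1.32 to 1.61), Runx3 of 1.24 (1.18 to 1.31) and Cbfb, the common partner subunit, of 0.80 (0.73 to 0.89).

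The genes furthest apart inside the gate are given with their values in other kept cells, where 47 of 5869 genes were at least 2-fold higher in the KO-labelled library (0.801%) and 38 at least 2-fold lower (0.647%). Both comparisons use the same pair of libraries. The 12 highest ratios inside the gate included Hmga2, a chromatin architectural protein, with 31.1 CPM in KO-labelled and 4.58 CPM in WT mitotic cells, Cpa3, a carboxypeptidase of mast cells, with 183 and 31.4 CPM, and Lpcat2, a phospholipid acyltransferase, with 33.3 and 5.998 CPM. Fcgr2b, an inhibitory IgG receptor, had 34.6 and 6.61 CPM, and Ms4a2, which encodes the IgE receptor's beta chain, had 26.6 and 6.61 CPM. Fam189b, Smim1, Tespa1, Clec1b and Otos had ratios of 3.29 to 4.35. Tsix, at 6.83, overlaps Xist in the genome, and between male cells it had 0 KO-labelled UMIs against 64 WT UMIs, a ratio of at most 0.48 with the 0 set to 3.

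The 12 lowest were led by Fcer1a, which encodes the alpha chain of that receptor, with 4 UMIs in all KO-labelled mitotic cells (0.222 CPM) and 491 UMIs in WT mitotic cells (23.2 CPM). Ehd3, an endocytic recycling protein, had 1.66 CPM in KO-labelled and 26.0 CPM in WT mitotic cells, Timp3, a metalloproteinase inhibitor, 2.94 and 26.9 CPM, and Serpine2, a protease inhibitor, 7.64 and 48.5 CPM. Fkbp11, Rbpms2, Bex4, Rgcc, Bex1, Tnip3, C1galt1 and Vwf had ratios of 0.22 to 0.33. In other kept cells Hmga2 had 24.6 CPM in the KO-labelled and 4.25 CPM in the WT library, Cpa3 160 and 49.9 CPM, and Serpine2 4.40 and 27.5 CPM. The ratios of Ms4a2 and Rgcc in other kept cells were nearer to 1, at 1.36 and 0.79, and among other cells under both limits they were 3.34 and 0.46. Among male mitotic cells, which are part of the cells above, Hmga2 had 28.7 CPM in KO-labelled and 4.86 CPM in WT cells, Cpa3 236 and 31.97 CPM, and Serpine2 1.76 and 50.7 CPM. The genes were chosen on values that include these cells, so the male values are a description.

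**Figure D5:**
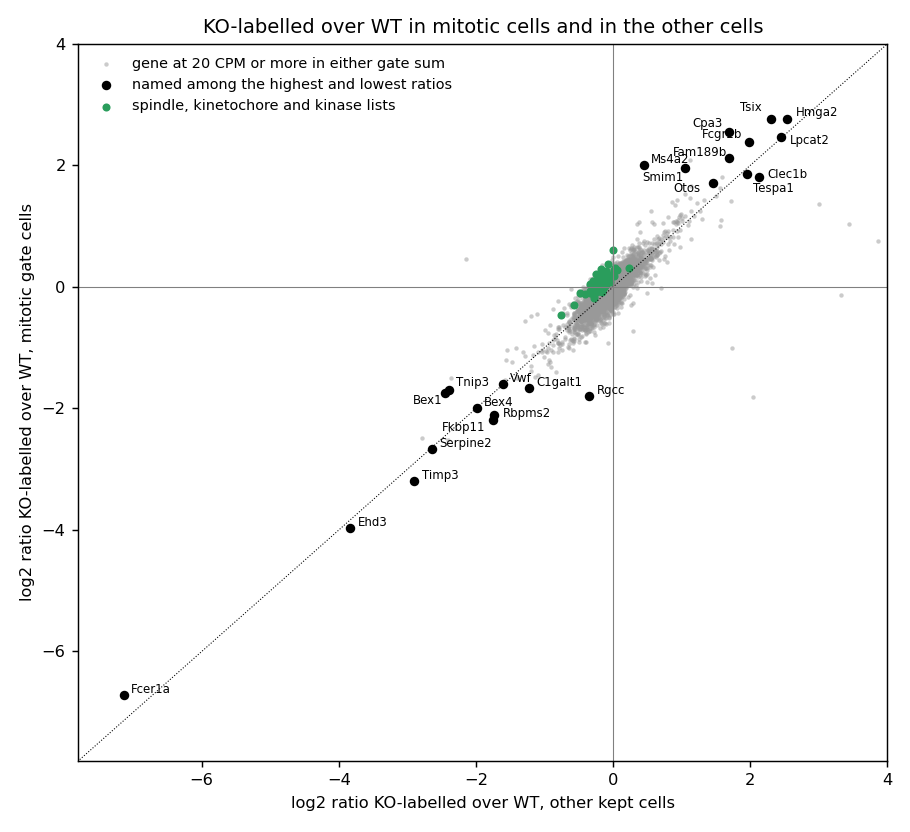
Log2 ratio of KO-labelled over WT CPM in mitotic cells (vertical) against that in other kept cells (horizontal), with 1 grey point per gene, 23 of the 24 highest and lowest in black and spindle, kinetochore and kinase genes in green. Grey points as far out are genes left out of naming, by their kind or with a UMI in under 10% of the mitotic cells. Among the named genes, Ms4a2 (ratios of 4.03 in mitotic and 1.36 in other kept cells) and Rgcc (0.29 and 0.79) lie well off the dotted line of equal ratios, and the green genes lie close to 0 on the vertical axis.

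Shares of mitotic cells are given by whether a UMI of a marker was present, read at 3000 UMIs per cell among cells under both limits. A UMI can also come from free RNA, the amount of which was not estimated. The share with a UMI in cells over the myeloid limit is given for comparison, and those cells may express the markers themselves. Of cells with a Procr UMI, a marker of stem cells, 8.31% (5.55 to 11.9) were mitotic in the KO-labelled library and 4.89% (3.01 to 7.45) in the WT library, and of cells without one 14.5% and 19.0%. Ly6a gave 7.33% of KO-labelled and 6.42% of WT cells with a UMI, and 15.6% and 19.9% without. A Ly6a UMI was present in 7.94% of KO-labelled and 4.29% of WT mitotic cells, and in 2.98% and 1.65% of cells over the myeloid limit. Gaps were smaller for Hlf, Slamf1 and Mecom. Hlf gave 13.8% of KO-labelled and 14.6% of WT cells with a UMI, and 14.4% and 19.4% without. Slamf1 gave 13.5% and 14.5% with, and 14.4% and 18.5% without. Mecom gave 10.0% and 12.7% with, and 14.7% and 19.7% without. Over the myeloid limit, 7.75% of KO-labelled and 7.50% of WT cells had a Hlf UMI. For Slamf1 these were 0.745% and 1.46%, and for Mecom 1.04% and 4.20%. Cdkn2c went the other way, with 21.0% of KO-labelled and 29.6% of WT cells mitotic among those with a UMI, and 12.8% and 16.8% among those without. A Cdkn2c UMI was present in 26.7% of KO-labelled and 18.01% of WT mitotic cells, and in 13.4% and 7.86% of cells over the myeloid limit. Cells with a Vwf UMI were mitotic in 22.3% (17.7 to 27.4) of KO-labelled and 22.8% (19.9 to 25.9) of WT cases, and cells over the myeloid limit had a Vwf UMI in 0.149% and 1.83%. Depth before thinning differed between these classes, and its part in the shares was not tested. Cells with a Vwf UMI had medians of 12750 KO-labelled and 12397 WT UMIs, against 8807 and 9271 in cells without. Those with a Procr UMI had 7011 and 6321, against 9031.5 and 9709.5. Those with a Ly6a UMI had 7540.5 and 6837, against 9294 and 9896, and those with a Cdkn2c UMI 9523 and 10207, against 8811 and 9414. Those with a Hlf UMI had 7739.5 and 7844, against 9268 and 9938, and those with a Mecom UMI 7722 and 8033, against 9054.5 and 9829. For Slamf1 the medians were 8802 and 8978.5, against 8946 and 9540.

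Cd48, which marks progenitors over stem cells, split the libraries. In the WT library 24.1% (21.4 to 27.0) of cells with a Cd48 UMI and 17.4% (16.5 to 18.4) of those without were mitotic, and in the KO-labelled library 13.6% (12.5 to 14.8) and 14.8% (13.8 to 15.8). Cells with a Cd48 UMI were 40.5% of KO-labelled and 16.3% of WT mitotic cells, and 42.8% and 11.4% of other cells under the limits. The share with a Cd48 UMI was 29.2% of KO-labelled and 14.2% of WT cells over the erythroid limit, and 42.3% and 40.6% over the myeloid limit. For Procr, the shares of cells over the myeloid limit with a UMI were 1.04% and 0.183%, against 2.14% and 1.43% of mitotic cells.

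Genes of mature lineages were few in most mitotic cells, while early granulocyte and monocyte genes and megakaryocyte genes were present. At least 50 UMIs per 10000 of a list of neutrophil, monocyte and dendritic, erythroid, basophil and mast, B or T and NK cell genes were found in 26 of 1264 KO-labelled (2.06%) and 50 of 1404 WT (3.56%) mitotic cells. Of all kept cells, 296 of 10769 KO-labelled and 281 of 9472 WT cells reached that level, so its rarity is not particular to mitotic cells. Most of the mitotic cells at that level had monocyte and dendritic genes, 22 KO-labelled and 46 WT. Neutrophil genes came from 3 KO-labelled and 2 WT cells, which held 96.5% and 97.4% of that list's UMIs in mitotic cells. The granulocyte and monocyte list, which was not part of that count, summed to 1805 CPM in KO-labelled and 1674 CPM in WT mitotic cells. In other kept cells, which include cells that the lineage limits keep out of the gate, it summed to 2976 and 2735 CPM. In other cells under the limits the sums lay closer to those of mitotic cells, at 2036 CPM in the KO-labelled and 1744 CPM in the WT library. Prtn3, a member of that list, had a UMI in 75.3% of KO-labelled and 64.6% of WT mitotic cells at full depth. At 3000 UMIs per cell these shares were 35.7% and 28.4%. The megakaryocyte list, also outside the count, summed to 2880 and 4478 CPM in mitotic cells. Its sums were 1837 and 2563 CPM in other kept cells, and 2441 and 3367 CPM in other cells under the limits. Nearly all of the gap between libraries in the mitotic sums is that of Pf4, while other members differ in direction. Of the macrophage and stromal lists no mitotic cell reached that level. Interferon-response genes, read because Mx1-Cre is interferon-driven, had 1 of 5 measured members higher in KO-labelled mitotic cells, where 38.7% of all genes were, none of the 5 at least 1.5-fold apart, and a median log2 ratio of -0.12, where that of all genes was -0.07.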

How the data were processed

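Single cells of sorted LSK CD150+ mouse bone marrow were measured in 2 libraries, 1 per genotype label. For each barcode and each of 31053 genes, the authors deposited a raw UMI count. Cell Ranger 2.1.1 and mm10 are given in the submitters' processing notes, and version 3.1.0 in the headers of the files. The 3′ v2 kit is named per the labels' protocols. Barcodes were kept from 500 detected genes upward if no more than 10% of their UMIs came from mt- genes, which left 10769 of 11398 KO-labelled and 9472 of 9969 WT barcodes. Doublets were not removed, and the deepest 5% of cells were left out as an alternative.

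UMIs were summed over the cells of a class and scaled to CPM with numpy 2.4.6 and pandas 2.3.3. Genes at 20 CPM or more in a compared sum were tested for size only, past 2-fold or 1.5-fold, with counts of 0 set to 3. Intervals at 95% are exact binomial for shares (Clopper-Pearson) and conditional binomial for ratios of sums (scipy 1.17.1), with a log approximation for ratios of shares. They cover counting error only. Cells were thinned to 3000 UMIs where shares with a UMI are compared. A cell was read as male with a Y-linked UMI and no Xist, and as female with at least 2 Xist UMIs and no Y-linked UMI. Trimmed means came from edgeR 4.0.16.

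Named genes are the 12 highest and 12 lowest ratios per contrast, 8 and 8 against cells under the limits, the genes of the rule and up to 4 members of a list. Between libraries they needed a UMI in 10% of the mitotic cells. Other list members named were picked after their values were seen. The cell rule and the gene lists were chosen with earlier results of these data known. Genes of the cell rule, ribosomal protein, mitochondrially encoded, haemoglobin and clone- or locus-coded genes were left out of these ratios. Of sex-linked genes, Xist and 4 Y-linked genes were left out, while other genes of the X chromosome, Tsix, Bex1 and Bex4 among them, were not. Some genes that this rule names are not reported here. Promoter windows were taken from RefSeq tables. The starts of the defining mitotic genes were compared with the GENCODE annotation, and those of other genes were not matched to other sources.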

Additional observations from a re-analysis of the deposited data

Results flagged for a closer look

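The haemoglobin genes stood apart because their ratio between libraries lay on opposite sides inside and outside the mitotic gate. Hba-a1 had a ratio of KO-labelled over WT of 0.345 in mitotic cells and 3.98 in other kept cells. Hba-a2 had 0.278 in mitotic cells and 4.37 in other kept cells, Hbb-bs 0.286 and 4.10, and Hbb-bt 0.499 and 3.32. The difference was not tested. A single WT mitotic cell at 50 or more UMIs per 10000 of the erythroid list held 31.1% of that list's UMIs in WT mitotic cells. Without mitotic cells rich in genes of other lineages the ratios were 2.15 for Hba-a1, 2.09 for Hba-a2, 1.78 for Hbb-bs and 1.34 for Hbb-bt.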

How the results depend on the processing

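No paired analysis was possible because each genotype has 1 library, and no replicate could be left out. The ratio of shares of mitotic cells, 0.792, lay between 0.69 and 0.85 over 13 alternatives, with 0.69 under the stricter cell filter. The 57 higher and 49 lower genes between libraries inside the gate were 28 and 19 at a floor of 50 CPM and 412 and 763 with no floor; the lower genes were 91 between male cells and 32 with TMM scaling, and the share of higher genes then moved to 52.9%. Against other kept cells, the 76 lower genes were 43 against cells under the limits, 116 with totals without ribosomal and mitochondrial genes, 39 at 50 CPM and 518 with no floor, and the 178 higher genes were 377 with no floor. Tsix had a ratio of 0.48 between male cells. Hba-a1, Hba-a2, Hbb-bs and Hbb-bt had ratios of 2.79, 2.66, 2.74 and 2.43 at a mitotic threshold of 5, of 1.70, 1.63, 2.04 and 1.54 at a threshold of 20, of 4.07, 4.27, 4.10 and 3.68 without lineage limits, and of 2.15, 2.09, 1.78 and 1.34 without cells rich in other lineages. The cause of these shifts was not tested. Depth limits low genes, and with 1 library per label no spread between mice is known.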
